A study of Homo sapiens with 4 samples.

Results

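The genes for the receptors of glutamate, GABA, glycine, acetylcholine, serotonin, dopamine and noradrenaline were followed in SY5Y neuroblastoma cells, a human MYCN wild type line of the sympathetic lineage, 12 h after SGSS05-NS or the vehicle DMSO. The labels of the libraries name the compound SGSS05-NS, while the study names SGSS05-NS3, a covalent inhibitor of SETD8, which methylates histone H4 and p53. Whether both names stand for the same compound was not settled here, and the name in the labels is used. Each condition had 2 libraries, described in the methods as independent biological replicates of the same line, and the vehicle was the only other group, so every value below is relative to DMSO. The labels give 3 µM, while the methods of the study give a lower dose for this line, and the dose of the libraries was not settled here. Members were chosen by gene name and not by any measured value: 102 protein-coding genes carried a receptor name of these families, of 57820 gene rows in the files. An identifier in the files was found for 100 of them, and ADRA2B and GABRQ were not analysed here.

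Neurotransmitter receptors are of 2 kinds. The AMPA, kainate, NMDA and delta subunits of the glutamate receptors, the GABA-A and glycine subunits and the nicotinic subunits assemble into ion channels that a transmitter opens directly. The metabotropic glutamate, GABA-B, muscarinic, dopamine and adrenergic receptors and most serotonin receptors instead pass the signal to a G protein. Sympathetic ganglion neurons, from whose precursors neuroblastoma arises, are driven by acetylcholine through nicotinic channels that contain CHRNA3 and CHRNB4, and their muscarinic receptors tune that response. Many receptor genes are very long, because introns separate the exons of a short coding sequence, while others, such as ADRA2A and ADRA2C, are only a few kb.

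The libraries held between 21463105 and 25350204 counts assigned to genes. The share of fragments that mapped to no annotated exon on the strand counted was 12.4% and 12.3% in DMSO and 16.1% and 15.3% with SGSS05-NS. It takes in fragments over exons of the other strand, and its part in the results below was not tested. Of 10 markers of adrenergic neuroblastoma cells, 9 were tested. With SGSS05-NS 7 were lower at an adjusted p below 0.001 in edgeR's test, beside 8.14% of all genes. The summed level of the 10 markers was 3523 and 3812 CPM (counts scaled to library size) in DMSO and 2152 and 1929 with SGSS05-NS. TH, the rate-limiting enzyme of catecholamine synthesis, was at 2 counts or fewer in each library. Of 8 mesenchymal markers 7 were tested and 2 were lower at that threshold, beside the same 8.14%. The summed level of the 8 was 298 and 317 CPM in DMSO and 237 and 218 CPM with SGSS05-NS, and PRRX1 was at 0 in each library. Of 6 glial markers 1 was tested and not called, with SOX10 at 0 in each library, and none of 4 muscle or 3 blood markers was tested. The part of these marker levels in the receptor results was not tested, and in bulk RNA fewer cells of a type cannot be told apart from less RNA per cell.

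Which receptor genes were expressed was asked first. A gene was taken as expressed when it passed edgeR's filter, a level of about 0.421 CPM in at least 2 libraries, and 43 of the 100 receptor genes did so. A further 27 had no count in any library, among them the NMDA subunits GRIN2A and GRIN2B, the dopamine receptors DRD1 and DRD3, the muscle nicotinic subunit CHRNA1 and the serotonin receptors HTR1A, HTR2A and HTR2C. A count of 0 in a library allows up to 3 counts, so these genes were not detectable at this depth. Another 24 had between 1 and 9 counts over the 4 libraries, and 6 had 10 or more but did not pass, the highest being GABRP with 22. Expression was uneven between families: all 5 muscarinic receptors were expressed, as were 4 of 5 kainate subunits, 3 of 4 AMPA subunits and 8 of 16 nicotinic subunits. Against these stood 3 of 18 GABA-A subunits with a row and 3 of 17 serotonin receptors. These counts take in expression in either condition. Among them, CHRM4, CHRNA2 and GABRD passed only in the SGSS05-NS libraries, and GRIK4 and HTR2B only in the DMSO libraries.

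Divided by the length of the merged exons, the nicotinic subunits stood highest. In DMSO, CHRNA3 reached 28.3 CPM per kb and CHRNB2, a nicotinic subunit that is widespread in brain, 27.3 CPM per kb. GRM8, an inhibitory metabotropic glutamate receptor, followed at 9.95 CPM per kb, with CHRNA5 at 8.05 and ADRA2C, a Gi-coupled receptor for noradrenaline, at 7.66 CPM per kb. Below these were HTR1E, a Gi-coupled serotonin receptor, at 6.49, the muscarinic receptor CHRM2 at 5.80, CHRNB4 at 5.56 and CHRM1 at 3.58 CPM per kb. As shares of the summed nicotinic level, CHRNA3 held 40.6% and 37.6% in the DMSO libraries and CHRNB2 37.1% and 38.3%, so the order of these genes was not fixed. The 16 nicotinic subunits, tested or not, summed to 72.3 ± 3.24 CPM per kb in DMSO (SD, n = 2) and the 8 metabotropic glutamate receptors to 11.7 ± 0.175. A few genes carried most of the receptor signal, and GABRD at 0.0114 and GRIN2C at 0.0144 CPM per kb were among the lowest in DMSO.

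With SGSS05-NS, 6 receptor genes were lower and 6 higher at an adjusted p below 0.001, by the quasi-likelihood test of edgeR with p-values adjusted over 16468 genes by the method of Benjamini and Hochberg. Lower were the muscarinic receptors CHRM1, CHRM2 and CHRM3, the delta subunit GRID1, the metabotropic receptor GRM8 and the kainate subunit GRIK3. Among the higher genes were the NMDA subunit GRIN2C, the GABA-B subunit GABBR1, the metabotropic receptor GRM2, the muscarinic receptor CHRM4 and the nicotinic subunit CHRNA2. Each direction held 14.0% of the 43 receptor genes, beside 6.37% of all genes called higher and 8.14% called lower. At an adjusted p below 0.05, 11 receptor genes were higher (25.6%, beside 22.6% of all genes) and 19 lower (44.2%, beside 23.7%), and 13 were in neither group.

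The filter bears on these counts. Of the 43 genes, 32 passed the level in both conditions, 6 only in the SGSS05-NS libraries (GABRD, GRIN2C, CHRM4, CHRNA2 and DRD4 among them) and 5 only in the DMSO libraries (GLRA2, GRIK4 and HTR2B among them). A gene that passed through the condition in which it was high had to differ, so 4 of the 6 higher calls were partly fixed by the filter. Among the 32 genes that passed in both conditions, 2 were higher (GABBR1 and GRM2) and 6 lower, beside 6.13% and 8.92% of the genes of this kind in the whole table. Both SGSS05-NS libraries lay above both DMSO libraries for 15 of the 43 genes (37.8% of all genes) and below them for 22 (36.9% of all genes), and the ranges overlapped for 6. Leaving out each library in turn moved the median log2 fold change of the tested receptor genes, -0.46 with all libraries. It was -0.36 without DMSO replicate 1, -0.18 without DMSO replicate 2, -0.33 without SGSS05-NS replicate 1 and -0.47 without SGSS05-NS replicate 2.

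The muscarinic receptors are the 5 G protein coupled receptors of acetylcholine. CHRM3 (chromosome 1 of GRCh37 from 239549865 to 240078752, plus strand), coupled to Gq and the release of calcium, had 217 and 268 counts in DMSO and 36 and 41 with SGSS05-NS. Its level went from 10.1 ± 2.00 to 1.68 ± 0.0856 CPM, a log2 fold change of -2.57 ± 0.22 (SE, edgeR adjusted p = 3.9e-06). CHRM2 (chromosome 7 from 136553399 to 136705002, plus strand), the Gi-coupled receptor that slows the heart, had 1073 and 1261 counts in DMSO and 382 and 487 with SGSS05-NS, a log2 fold change of -1.35 ± 0.14 (edgeR adjusted p = 1.4e-05). CHRM2 was thus the most abundant muscarinic gene in both conditions, at 48.4 ± 7.93 and 19 ± 2.47 CPM, with no overlap. CHRM1 (chromosome 11 from 62676151 to 62689279, minus strand), Gq-coupled and the main muscarinic receptor of forebrain neurons, had 277 and 286 counts in DMSO and 107 and 122 with SGSS05-NS, a log2 fold change of -1.22 ± 0.16 (edgeR adjusted p = 9.0e-05).

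CHRM4 (chromosome 11 from 46405339 to 46413326, minus strand), the second Gi-coupled muscarinic receptor, moved the other way, with 9 and 4 counts in DMSO and 32 and 51 with SGSS05-NS. The ratio of its scaled counts was 6.76 with an exact binomial 95% interval from 3.75 to 13.2 (edgeR adjusted p = 0.00027). Intervals of this kind cover counting error only, since amplified reads are not independent molecules. Without SGSS05-NS replicate 2 the CHRM4 log2 fold change of 2.41 no longer passed the threshold. CHRM5, with 28 and 15 counts in DMSO and 26 and 25 with SGSS05-NS, overlapped between conditions. The muscarinic genes together went from 10.3 ± 1.24 to 4.70 ± 0.536 CPM per kb. Within that sum the share of CHRM3 went from 6.42% ± 0.502 to 2.37% ± 0.150. That of CHRM4 went from 0.873% ± 0.526 to 12.4% ± 2.15 (SD, n = 2). These shares depend on exon length, 15173 bases for CHRM3 and 3066 for CHRM4.

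**Figure D1:**
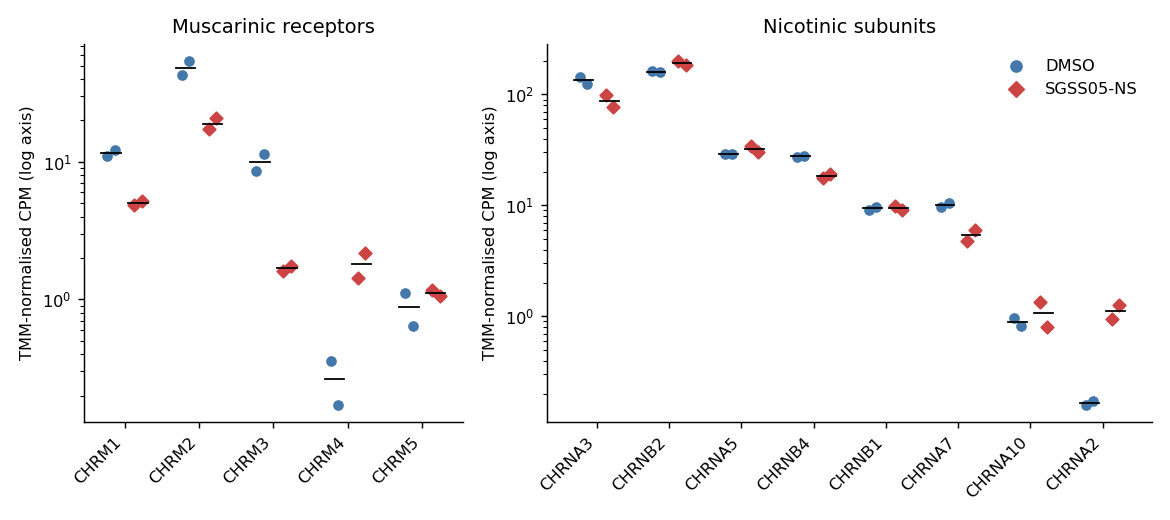
TMM-normalised CPM on a log axis in each library for the 5 muscarinic receptors (left) and the 8 tested nicotinic subunits (right), with DMSO as circles, SGSS05-NS as diamonds and the mean of 2 libraries as a line. CHRM1, CHRM2 and CHRM3 lie lower and CHRM4 and CHRNA2 higher with SGSS05-NS, while CHRM5, CHRNA10 and CHRNB1 overlap.

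The nicotinic subunits form channels of 5 subunits each. CHRNA3 (chromosome 15 from 78885394 to 78913637, minus strand), the defining subunit of the ganglionic receptor, had 3618 and 2927 counts in DMSO and 2174 and 1801 with SGSS05-NS, or 135 ± 13.4 and 87.3 ± 15.1 CPM. Its log2 fold change of -0.63 ± 0.12 missed the threshold of 0.001 (edgeR adjusted p = 0.0015), although the conditions did not overlap. It passed without DMSO replicate 1 (-0.53), without DMSO replicate 2 (-0.74) and without SGSS05-NS replicate 1 (-0.82), and not without SGSS05-NS replicate 2 (-0.46). CHRNB4, its neighbour and the usual partner subunit, had 684 and 657 counts in DMSO and 390 and 449 with SGSS05-NS (log2 fold change -0.59 ± 0.11, edgeR adjusted p = 0.0013). CHRNA5, an accessory subunit from the same cluster on chromosome 15 but the opposite strand, had 732 and 681 counts in DMSO and 760 and 717 with SGSS05-NS (log2 fold change 0.15, edgeR adjusted p = 0.28).

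The genes of that cluster did not keep their proportions. Counts of CHRNA3 per count of CHRNA5 were 4.94 and 4.30 in DMSO and 2.86 and 2.51 with SGSS05-NS, and those of CHRNB4 per CHRNA5 were 0.934 and 0.965 in DMSO and 0.513 and 0.626 with SGSS05-NS. CHRNA3 per CHRNB4 overlapped, at 5.29 and 4.46 in DMSO and 5.57 and 4.01 with SGSS05-NS. The ends of CHRNA3 and CHRNA5 overlap on opposite strands, and only counts of the gene's own strand were used. Counts are not divided by length in these ratios, so they compare libraries and not genes.

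CHRNB2 had 4088 and 3688 counts in DMSO and 4428 and 4368 with SGSS05-NS (log2 fold change 0.26 ± 0.09, edgeR adjusted p = 0.034). Per kb it made up 37.7% ± 0.849 of the summed nicotinic level in DMSO and 49.0% ± 1.54 with SGSS05-NS, while CHRNA3 made up 39.1% ± 2.13 and 27.3% ± 2.51. Per kb, CHRNB2 was above CHRNA3 in both SGSS05-NS libraries and in 1 of the 2 DMSO libraries. The nicotinic sum, at 72.3 ± 3.24 and 66.9 ± 5.49 CPM per kb, differed by less than the SD of the SGSS05-NS libraries. CHRNA7, the subunit of homomeric channels, had 242 and 248 counts in DMSO and 106 and 141 with SGSS05-NS (log2 fold change -0.91, edgeR adjusted p = 0.0012), and its value is uncertain because CHRFAM7A carries a near-identical copy of its exons. CHRNA2 had 4 and 4 counts in DMSO and 21 and 30 with SGSS05-NS, a scaled ratio of 6.75 with an interval from 3.18 to 16.5 (edgeR adjusted p = 0.00041). The call of CHRNA2 was lost without DMSO replicate 1 (log2 fold change 2.66) and without SGSS05-NS replicate 2 (2.48). CHRNA10, with 24, 19, 30 and 19 counts, and CHRNB1, with 226, 228, 221 and 215, overlapped between conditions.

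Among the glutamate receptors, GRID1 was lowered most. GRID1 (chromosome 10 from 87359309 to 88126552, minus strand), a delta subunit that binds cerebellin proteins across the synapse, had 514 and 492 counts in DMSO and 98 and 175 with SGSS05-NS, or 20.8 ± 0.405 and 5.93 ± 2.14 CPM. Its log2 fold change was -1.80 ± 0.19 (edgeR adjusted p = 2.0e-05).

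The metabotropic receptors went in both directions. GRM8 (chromosome 7 from 126078652 to 126893147, minus strand) had 1557 and 1498 counts in DMSO and 710 and 853 with SGSS05-NS (log2 fold change -0.89 ± 0.10, edgeR adjusted p = 3.5e-05). GRM2 (chromosome 3 from 51741084 to 51752629, plus strand), also Gi-coupled and presynaptic, had 134 and 98 counts in DMSO and 254 and 246 with SGSS05-NS (log2 fold change 1.20 ± 0.17, edgeR adjusted p = 0.00018). In DMSO the level of GRM8 was 63.1 ± 1.46 CPM and that of GRM2 4.77 ± 0.810 CPM, and with SGSS05-NS they were 34.1 ± 3.02 and 11 ± 0.697 CPM. GRM7, a relative of GRM8, had 192 and 201 counts in DMSO and 77 and 125 with SGSS05-NS (log2 fold change -0.88, edgeR adjusted p = 0.0046).

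Of the kainate subunits, GRIK3 (chromosome 1 from 37261128 to 37500116, minus strand) had 144 and 130 counts in DMSO and 62 and 60 with SGSS05-NS (log2 fold change -1.08 ± 0.19, edgeR adjusted p = 0.00087). That call lay close to the threshold and was lost without SGSS05-NS replicate 2 (log2 fold change -1.01). GRIK2, the main pore-forming kainate subunit, had 807 and 818 counts in DMSO and 356 and 538 with SGSS05-NS (log2 fold change -0.79 ± 0.15, edgeR adjusted p = 0.0012). GRIK5, an auxiliary subunit of high affinity, had 398 and 546 counts in DMSO and 563 and 568 with SGSS05-NS (log2 fold change 0.34, edgeR adjusted p = 0.10). Per kb, the summed kainate level was 5.47 ± 1.01 in DMSO and 5.40 ± 0.0636 CPM with SGSS05-NS. GRIK5 made up 62.1% ± 5.47 of it in DMSO and 80.2% ± 3.73 with SGSS05-NS. This sum and these shares depend on exon length, 26797 bases for GRIK2 and 5722 for GRIK5. In CPM, not divided by length, GRIK2 was above GRIK5 in DMSO, at 33.6 ± 2.01 and 19.6 ± 5.31. With SGSS05-NS GRIK2 was below GRIK5, at 19.5 ± 4.83 and 24.8 ± 0.861 CPM. A kainate level that stayed the same cannot be read from the sum per kb.

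The NMDA receptors need the obligatory subunit GRIN1 and a second subunit. GRIN1 had 342 and 432 counts in DMSO and 298 and 456 with SGSS05-NS, and the conditions overlapped (log2 fold change 0.03, edgeR adjusted p = 0.90). GRIN2C (chromosome 17 from 72838162 to 72857627, minus strand), the second subunit known from cerebellar granule cells, had 3 counts in each DMSO library and 94 and 95 with SGSS05-NS. Its scaled ratio was 33.4 with an interval from 15.1 to 92.1 (edgeR adjusted p = 1.1e-06). The strand opposite to GRIN2C held 22 and 22 counts in DMSO and 24 and 28 with SGSS05-NS, and with both strands counted together the fitted log2 fold change was 2.34, smaller than on its own strand and still past the threshold. GRIN2D, a second subunit typical of immature neurons, had 14 and 12 counts in DMSO and 46 and 25 with SGSS05-NS (log2 fold change 1.53, edgeR adjusted p = 0.0074), and GRIN2A and GRIN2B had no count. Per kb, GRIN2C made up 0.929% ± 0.145 of the summed NMDA level in DMSO and 21.5% ± 3.01 with SGSS05-NS. The 3 AMPA subunits tested, which carry fast excitation, had negative fold changes, from -0.90 to -0.46, and were lower at 0.05 but not at 0.001, with GRIA4 at 439 and 429 counts in DMSO and 221 and 303 with SGSS05-NS (log2 fold change -0.65, edgeR adjusted p = 0.0035).

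Of the receptors of the inhibitory transmitters, GABBR1 was the gene called. GABBR1 (chromosome 6 from 29523406 to 29601753, minus strand), the GABA-binding subunit of the GABA-B receptor, had 60 and 55 counts in DMSO and 137 and 160 with SGSS05-NS, or 2.37 ± 0.0263 and 6.49 ± 0.445 CPM (log2 fold change 1.45 ± 0.19, edgeR adjusted p = 0.00011). GABBR2, the subunit that carries GABBR1 to the cell surface and contacts the G protein, had 0 and 0 counts in DMSO and 5 and 4 with SGSS05-NS and was not tested. GABRD, the subunit of GABA-A channels outside the synapse, had 1 and 2 counts in DMSO and 11 and 11 with SGSS05-NS, a scaled ratio of 7.77 with an interval from 2.33 to 40.5 that missed the threshold (edgeR adjusted p = 0.0025). GLRA2, the glycine receptor subunit of immature neurons, had 23 and 22 counts in DMSO and 4 and 14 with SGSS05-NS (log2 fold change -1.23, edgeR adjusted p = 0.041), and its fold change was -0.64 without SGSS05-NS replicate 1 and -2.33 without SGSS05-NS replicate 2.

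Of the receptors of the monoamines named here, none passed the threshold of 0.001 in edgeR's test, and ADRA2C, ADRA2A and HTR1E passed that of 0.05. ADRA2C had 432 and 378 counts in DMSO and 502 and 529 with SGSS05-NS (log2 fold change 0.43, edgeR adjusted p = 0.0097), and ADRA2A had 22, 29, 40 and 51 counts (log2 fold change 0.91, edgeR adjusted p = 0.023). HTR1E (chromosome 6 from 87647246 to 87726397, plus strand) had 312 and 263 counts in DMSO and 161 and 132 with SGSS05-NS (log2 fold change -0.88 ± 0.17, edgeR adjusted p = 0.0012). DRD2, the Gi-coupled dopamine receptor that antipsychotic drugs block, had 201, 160, 193 and 188 counts and overlapped, and DRD4 had 5 and 8 counts in DMSO and 11 and 13 with SGSS05-NS.

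Sorted by how the receptors signal, the calls also went both ways, to be read beside 6.37% of all genes higher and 8.14% lower. Of 25 tested channel subunits 2 were higher and 2 lower, with a median log2 fold change of -0.55. Of 11 Gi-coupled receptors 3 were higher (GRM2, CHRM4 and the heteromeric GABBR1) and 2 lower (CHRM2 and GRM8), and of 5 Gq-coupled receptors 2 were lower (CHRM1 and CHRM3) and none higher at 0.001. The median log2 fold change was -0.46 over the 43 receptor genes, -0.51 over the 32 that passed in both conditions and 0.01 over all genes tested. Of the 43 fold changes 22 were negative and 21 positive, and the value next above the median was 0.03 (CHRNB1). The median thus stood at the edge of a gap and does not describe the receptor genes as a whole.

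The relation to gene span, the distance from the first to the last base of the gene, was the next question. The tested receptor genes had a median span of 78.3 kb, against 34.8 kb for the 12565 protein-coding genes tested. The 6 lower genes had a median span of 384 kb and the 6 higher genes 15.5 kb. Across the 43 genes Spearman's rho of span and log2 fold change was -0.75, and it was -0.66 over the 32 that passed in both conditions and -0.40 with the length of merged exons in place of span. Over all protein-coding genes tested rho was -0.42 with span and -0.20 with exon length. Genes are not independent replicates and share these 4 libraries, so the coefficients are a description. Span also went with level among the receptor genes, with a rho of 0.35 between span and CPM in DMSO.

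All 19 tested receptor genes of 100 kb or more had a negative log2 fold change. CHRNB4 is among them through an annotated span of 104 kb, while its canonical transcript spans 17.1 kb. In the class from 100 to 300 kb all 8 were negative, as were 78.8% of the 2081 protein-coding genes of that class, and 2 were lower at 0.001 (25% beside 21.6%). At 0.05, 7 of these 8 were lower, or 87.5% beside 50.9%. In the class of 300 kb and over all 11 were negative, as were 94.6% of 570 genes, and 3 were lower at 0.001 (27.3% beside 58.6%) and 9 at 0.05 (81.8% beside 82.1%). For the longest receptor genes the share was thus below that of their class at 0.001 and close to it at 0.05, and their median log2 fold change was -0.90 beside a class median of -1.10. These shares carry no test.

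Among short receptor genes the share of higher calls was above that of all genes of their span, but the filter bears on it. Under 30 kb, 5 of 17 receptor genes were higher at 0.001 (29.4% beside 10.7% of 5727 genes) and 1 was lower (5.88% beside 2.08%). Of the higher genes, GRIN2C, CHRM4 and CHRNA2 passed the filter through the SGSS05-NS libraries only, and GRM2 passed in both conditions. The share of higher calls among short receptor genes was thus partly fixed by the filter and is no trait of them. Between 30 and 100 kb, 1 of 7 was higher (GABBR1) and none was lower at 0.001, beside 5.99% higher and 3.99% lower in the class, with 2 higher and 1 lower at 0.05 in edgeR's test, beside 21.5% and 19.5%. The 2 receptor genes under 30 kb with a negative fold change were CHRM1 and CHRNA3.

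Single genes stood apart from others of their span. CHRM3, at 529 kb, had a lower log2 fold change than all but 5 of the 569 other protein-coding genes of 300 kb and over. CHRM2, at 152 kb, had 55 of 2080 genes below it in its class, HTR1E, at 79.2 kb, 60 of 4186, and CHRM1, at 13.1 kb, 35 of 5726. CHRNA3, at 28.2 kb, had 177 of 5726 genes below it. GRM8, at 814 kb, lay inside its class with 347 of 569 genes lower, as did GRIK2 at 1119 kb with 385 of 569. These ranks were read after the receptor genes had been sorted by their fold change and carry no test.

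The 250 bases before the transcription start are shown for the muscarinic receptors CHRM1 to CHRM4, since these went in opposite directions, and for GABBR1 and GRM2, the higher genes that passed the filter in both conditions. They are RefSeq sequences of GRCh38.p14, 5′ to 3′ on the strand of the gene, and capitals mark matches on either strand to the motifs searched.
CHRM1, chr11:62921364-62921613, minus strand: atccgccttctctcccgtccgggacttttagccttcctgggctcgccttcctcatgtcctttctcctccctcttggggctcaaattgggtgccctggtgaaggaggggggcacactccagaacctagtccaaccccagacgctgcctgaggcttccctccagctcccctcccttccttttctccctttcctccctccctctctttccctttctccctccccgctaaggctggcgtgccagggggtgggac
CHRM2, chr7:136868402-136868651, plus strand: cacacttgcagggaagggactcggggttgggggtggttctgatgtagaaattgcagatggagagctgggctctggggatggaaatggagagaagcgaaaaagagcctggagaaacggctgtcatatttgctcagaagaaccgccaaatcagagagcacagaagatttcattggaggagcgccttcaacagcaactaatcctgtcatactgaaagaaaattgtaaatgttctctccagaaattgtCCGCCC
CHRM3, chr1:239386318-239386567, plus strand: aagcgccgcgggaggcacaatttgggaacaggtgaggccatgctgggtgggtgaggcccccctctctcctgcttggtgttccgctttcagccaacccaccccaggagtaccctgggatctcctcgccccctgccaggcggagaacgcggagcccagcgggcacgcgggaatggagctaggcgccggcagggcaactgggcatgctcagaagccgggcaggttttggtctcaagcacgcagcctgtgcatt
CHRM4, chr11:46391777-46392026, minus strand: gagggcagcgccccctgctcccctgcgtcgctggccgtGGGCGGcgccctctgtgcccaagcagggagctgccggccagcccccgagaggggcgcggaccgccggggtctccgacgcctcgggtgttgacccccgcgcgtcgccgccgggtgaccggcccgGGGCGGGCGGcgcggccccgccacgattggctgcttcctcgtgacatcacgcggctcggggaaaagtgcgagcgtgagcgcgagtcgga
GABBR1, chr6:29628014-29628263, minus strand: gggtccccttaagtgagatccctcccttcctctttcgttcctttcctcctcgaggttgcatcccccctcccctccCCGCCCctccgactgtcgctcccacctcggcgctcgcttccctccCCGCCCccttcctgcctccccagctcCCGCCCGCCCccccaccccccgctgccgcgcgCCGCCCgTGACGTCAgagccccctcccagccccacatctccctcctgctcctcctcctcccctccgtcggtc
GRM2, chr3:51706818-51707067, plus strand: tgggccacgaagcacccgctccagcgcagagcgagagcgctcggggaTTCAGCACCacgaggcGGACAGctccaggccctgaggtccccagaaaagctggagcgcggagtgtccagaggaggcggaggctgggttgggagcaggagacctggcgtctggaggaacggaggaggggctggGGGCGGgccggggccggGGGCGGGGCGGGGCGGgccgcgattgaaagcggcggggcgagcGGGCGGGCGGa
The motifs were the GC box GGGCGG, the TATA box TATAAA, the cyclic AMP response element TGACGTCA, TGANTCA, the E-box CACGTG, the heat shock element core GAANNTTC, the antioxidant response element core TGACNNNGC, and the left and right parts TTCAGCACC and GGACAG of the RE1 element that the repressor REST binds. RefSeq promoters were matched for 75 of the 102 receptor genes and 29 of the 43 tested, and CHRNA2, GRIN2C and GRID1 had none in the table.

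The windows of CHRM1 and CHRM3 held none of these motifs, and that of CHRM2 held a single GC box at its last bases. CHRM4, the muscarinic gene that was higher, had 3 GC boxes, counting overlapping matches. GABBR1 had 5 GC boxes and the cyclic AMP response element, which is present in 1.77% of 27303 RefSeq promoters. GRM2 had 6 GC boxes and both parts of the RE1 element, of which the left is present in 0.30% and the right in 17.1% of promoters. The GC box was in 42.3% of all promoters, in 20 of the 29 windows of tested receptor genes, in 3 of 3 windows of higher receptor genes and in 3 of 5 windows of lower ones. TATAAA was in 11.1% of promoters and TGANTCA, GAANNTTC, TGACNNNGC and CACGTG in 6.60%, 5.85%, 11% and 6.49%, and none of them was in a window of these 8 genes. A match is a description of letters and not of a bound factor.

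The genes that receptors work with were described from 5 lists written from general knowledge. Of 30 tested glutamate receptor partners 1 was higher and 5 lower at 0.001 (16.7% lower, beside 8.14% of all genes lower and 6.37% higher), with CACNG4, an auxiliary AMPA subunit, at a log2 fold change of -0.92, CBLN2, a cerebellin that binds delta receptors, at -1.01 and DLG4, the scaffold protein of excitatory synapses, at 0.81. Of 18 GABA and glycine receptor partners 2 were higher and 4 lower (22.2% lower, beside the same 8.14%), with GABARAPL1, an autophagy protein related to a GABA-A receptor binding protein, at 2.62, ABAT, which breaks down GABA, at -1.05 and KCTD16, an auxiliary GABA-B subunit, at -2.41. KCTD16 was thus lower in the libraries in which GABBR1 was higher.

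Of 13 tested cholinergic partners 2 were higher and 3 lower (23.1% lower, beside 8.14%). ACHE, the enzyme that breaks down acetylcholine, went from 0.540 ± 0.144 to 5.71 ± 0.0442 CPM (log2 fold change 3.40 ± 0.27, edgeR adjusted p = 2.4e-06), while LYPD6, which binds nicotinic receptors, was at -1.31 and VSNL1, a neuronal calcium sensor, at -1.42. Of 16 monoamine partners none was higher and 3 were lower (18.8%, beside 8.14%) in edgeR's test at 0.001: DDC, which makes dopamine from its precursor, at -0.79, the noradrenaline transporter SLC6A2 at -0.59 and GCH1, which makes the cofactor of TH, at -0.68. Of 56 G protein signalling genes 2 were higher and 15 lower (26.8% beside 8.14% of all genes), with a median of -0.29. Among them RGS4, which shortens Gi and Gq signals, was at -1.77, GNAQ, the Gq subunit through which CHRM1 and CHRM3 act, at -1.53 and GRK3, a kinase that desensitises receptors, at -1.23. The medians of the other lists were -0.06 for glutamate, -0.18 for GABA and glycine, 0.22 for cholinergic and -0.19 for monoamine partners, beside 0.01 for all genes. Median span was 102 kb for the G protein list, 66.6 kb for glutamate, 85.1 kb for GABA and glycine, 63 kb for cholinergic and 38.3 kb for monoamine partners. For the protein-coding genes tested it was 34.8 kb. Of those from 100 to 300 kb 21.6% were lower at 0.001, and of those of 300 kb and over 58.6%. The part of span in the shares of these lists was not tested.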

How the data were processed

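Paired reads of 4 libraries of SY5Y cells (2 DMSO, 2 SGSS05-NS) were processed by the authors, whose notes name Trimmomatic 0.30, STAR 2.4.2a, edgeR 3.10.5 and hg19. The deposited files hold raw counts per gene from STAR for 57820 genes, as 1 column that ignores strand and 1 column per strand. The reverse-strand column, which held nearly all gene counts, was used. The 4 summary rows entered neither scaling nor testing. On no annotated exon of that strand lay 12.3% to 16.1% of a library. Ambiguous fragments were 2.32% to 2.58%, and those mapping to several places, which count for no gene, 14.3% to 15.4%. No per-sample column was left unassigned (0). The labels name a TruSeq RNA kit and the methods a stranded kit with removal of ribosomal RNA.

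Conditions and replicate numbers came from the titles. Names, positions and spans were taken by identifier from GENCODE 44 on GRCh37 (55538 rows matched), which can differ from GENCODE 19, and 6 genes that share only letters with a family (HTRA1 to HTRA4, and GRK2 and GRK3 under older names) were left out. edgeR 4.0.16 in R 4.3.3 was run over the whole table with filterByExpr (minimum count 10), TMM scaling, the quasi-likelihood test of the condition alone and Benjamini-Hochberg adjustment over 16468 genes. The threshold was 0.001, with 0.05 as a second. Levels are TMM-normalised CPM, as mean ± SD. For genes with fewer than 20 DMSO counts that passed through the SGSS05-NS libraries only, the ratio of scaled counts was given. Counts of replicates differed by more than sampling noise (chi-square divided by its degrees of freedom, 8.76 in DMSO and 11.8 with SGSS05-NS), and p-values rest on 2 libraries per condition. The step was tested on simulated data.

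The genes named were CHRM3, CHRNA3, every receptor gene called at 0.001 and the tested gene of each family highest per kb in DMSO. Also named were the 5 longest and 5 shortest tested genes, and the 3 genes of each partner list with the smallest p. Some genes of this rule are not reported here, though counts over all tested receptor genes include them. Others (such as CHRNA5, CHRNB4, CHRNB2, CHRNA7, CHRM5, CHRNB1, GRIN2D, GABRD and GABBR2) were added after their values were seen. The members, lists and motifs were chosen with earlier results of these data known. Alternatives were the likelihood ratio test, DESeq2 1.42.0, limma voom (3.58.1), other scalings, filters, strands and thresholds, a replicate block and each library left out.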

Additional observations from a re-analysis of the deposited data

Results flagged for a closer look

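Counts on the strand opposite to the gene, which the comparisons did not use, were, in CPM, over 1.5 times as high in each SGSS05-NS library as in the higher DMSO library for 5 receptor genes with 30 or more such counts in all. For CHRND, a muscle nicotinic subunit that was not tested, they summed to 52 with SGSS05-NS (19 and 33) and 7 in DMSO (4 and 3), while its own strand held 1 and 2 with SGSS05-NS and 7 and 3 in DMSO. For GRIN3A, also not tested, they summed to 203 with SGSS05-NS and 101 in DMSO, and its own strand held 1 count in all. CHRNG, the fetal muscle nicotinic subunit, had 227 with SGSS05-NS and 115 in DMSO, and HTR2B, a Gq-coupled serotonin receptor, had 61 and 30. TIGD1 lies opposite CHRNG and PSMD1 opposite HTR2B, and reads of these genes cannot be told apart from antisense reads. GRIA4 had 39 with SGSS05-NS and 15 in DMSO, while its own strand held 221 and 303 with SGSS05-NS and 439 and 429 in DMSO. The share of all genes that meet the same rule was not determined, so these genes cannot be read as a trait of receptor genes. Over all genes, the opposite strand held 4.67% and 4.64% of the counts of both strands in DMSO. With SGSS05-NS it held 5.05% and 5.04%. These differences were not tested.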

How the results depend on the processing

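Over 13 alternatives the 12 called receptor genes kept their direction wherever they were tested, and the likelihood ratio test, the size factors of DESeq2, no filter, counts without regard to strand and the fit without DMSO replicate 2 or without SGSS05-NS replicate 1 kept all 12 calls. GRIK3 was lost in DESeq2, limma voom and scaling by library size only, and CHRNA2 in DESeq2, and GRIN2C, CHRM4 and CHRNA2 were not tested where every library needed 10 counts. The number of lower receptor genes, 6, became 15 with the likelihood ratio test, 10 in DESeq2, 15 without a filter and 10 without regard to strand. At an adjusted p below 0.01 in edgeR's test it was 15, and below 0.05 it was 19. Over all genes tested the number lower moved too, from 1341 to 2267 with the likelihood ratio test and 1598 in DESeq2. It was 2570 of 30755 without a filter and 1414 of 17778 without regard to strand. The number of higher receptor genes, 6, became 2 with 10 counts in every library, 2 with only genes passing in both conditions (added after the filter was seen) and 11 at 0.05. Without a filter 73 receptor genes were tested in place of 43, the median log2 fold change reversed from -0.46 to 0.12, and rho with span was -0.45. The median was -0.27 without regard to strand, -0.034 with the HTRA and GRK genes, and -0.47 to -0.18 with 1 library left out. Spearman's coefficient with span was -0.66 with 10 counts in every library or passing in both conditions, -0.40 with merged exons, and -0.78 to -0.67 with 1 library left out. GRIN1 (-0.26 to 0.27 with 1 library left out) and CHRNA10 (-0.14 to 0.61) had no fixed direction. The causes were not tested.

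Same-numbered replicates deviated together with r = 0.053 and nothing ties them, so the numbers did not pair the libraries. With the replicate block 14 receptor genes were lower and 8 higher, and all 12 called genes were shared. Over all genes tested 2007 were lower and 1759 higher with the block, against 1341 and 1049 without it. With 1 library left out, the lone library is assumed to vary like the other condition.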
